A study of Mus musculus with 6 samples.

Results

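The normal haematopoietic stem cell (HSC) of the mouse was described here from the 3 wild-type (WT) arrays of a series of 6. The cells were CD150+ CD48- KSL cells of bone marrow. WT mice were Lig4+/+ littermates from intercrosses of Lig4mut/+ mice, aged 6 to 8 weeks, with no treatment in the labels, and the 3 arrays are biological replicates. The sources used here do not say if mice were pooled for an array, and nothing is compared with the mutant arrays. Each of 18193 genes was ranked by its mean log2 level over the 3 arrays, read from its brightest probe set that names no other gene, and a percentile of 100 marks the brightest gene. Such a rank orders the brightness of probe sets, which also depends on the probes, and is not an order of transcript abundance.

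HSC sit at the top of blood formation, renew themselves, and in the adult are mostly out of the cell cycle. They are held in the marrow by signals from neighbouring cells, among them Kit ligand and Cxcl12, and by a network of transcription factors around Gata2, Runx1, Tal1 and Erg. The gate keeps cells without lineage antigens that are positive for Kit and Sca-1, carry CD150, the product of Slamf1, and lack CD48. CD150 and CD48 are a pair of antigens of the SLAM family that parts stem cells from most progenitors. Ly6a, the gene of Sca-1, was not among the genes measured here.

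The cells were described with 5 marker genes, chosen with earlier results of these data known, so their levels are no independent check. Kit and Slamf1 also encode antigens of the gate. The 150 bases before the start sites of the 5 genes are shown because they range from poor to rich in the CG dinucleotide. That feature is counted over all promoters further on. Sequences are RefSeq's for GRCm38.p6, written 5′ to 3′ along the gene's strand, with each CG dinucleotide in capitals. Procr encodes the endothelial protein C receptor, and its stretch is chr2:155751067-155751216 on the plus strand. Slamf1 lies at chr1:171766982-171767131 on the plus strand. Mecom, which encodes the zinc finger factor Evi1, has 2 listed starts, at chr3:30509760-30509909 and chr3:30013205-30013354 on the minus strand. Hlf, a PAR bZIP transcription factor, lies at chr11:90390918-90391067 on the minus strand, and Kit, the stem cell factor receptor, at chr5:75574837-75574986 on the plus strand for the first of its 2 listed starts.
Procr: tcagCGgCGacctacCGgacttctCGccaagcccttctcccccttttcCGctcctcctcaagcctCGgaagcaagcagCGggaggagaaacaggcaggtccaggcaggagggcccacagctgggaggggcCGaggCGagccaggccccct
Slamf1: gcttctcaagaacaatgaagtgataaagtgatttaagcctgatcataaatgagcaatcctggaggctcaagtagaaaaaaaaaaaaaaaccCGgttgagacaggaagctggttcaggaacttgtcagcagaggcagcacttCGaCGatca
Mecom, first start: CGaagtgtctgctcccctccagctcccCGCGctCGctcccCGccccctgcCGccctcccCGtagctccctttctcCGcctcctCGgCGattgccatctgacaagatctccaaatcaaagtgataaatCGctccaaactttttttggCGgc
Mecom, second start: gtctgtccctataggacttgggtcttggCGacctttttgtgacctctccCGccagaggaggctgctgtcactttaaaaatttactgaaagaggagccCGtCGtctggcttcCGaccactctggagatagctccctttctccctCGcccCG
Hlf: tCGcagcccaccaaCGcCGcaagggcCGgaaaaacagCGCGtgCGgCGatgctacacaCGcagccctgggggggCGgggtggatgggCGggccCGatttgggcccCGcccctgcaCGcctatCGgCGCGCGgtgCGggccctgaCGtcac
Kit: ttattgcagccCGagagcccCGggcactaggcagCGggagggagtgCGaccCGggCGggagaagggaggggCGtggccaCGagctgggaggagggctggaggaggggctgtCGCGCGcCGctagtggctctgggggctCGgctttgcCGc
The stretches held 9 CG in Procr, 3 in Slamf1, 12 and 7 at the 2 starts of Mecom, 20 in Hlf and 14 in Kit. Slamf1 was the poorest in CG of the 5 genes and Hlf the richest, and the last bases shown for Hlf hold the palindrome of the cAMP response element, TGACGTCA. Searched as exact letters, it was in 2.7% of all promoters with 1 listed start, counted further on.

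The 3 arrays were alike in their distributions and differed in some genes. Medians over all probe sets were 6.33, 6.34 and 6.29 on the log2 scale, 5.59% to 5.67% of probe sets lay at the lowest value of 3, and pairs of arrays correlated at r = 0.951 to 0.958 across genes, which are not independent replicates. Sex-linked genes split the arrays. Xist, the RNA that silences an X chromosome in females, was at 5.76, 4.98 and 12.53 in replicates 1, 2 and 3, while the Y-linked Eif2s3y was at 10.11, 10.04 and 6.28. Kdm5d (9.90, 8.79 and 6.05) and Uty (8.33, 7.37 and 3.68), also Y-linked, had the same split, so replicate 3 stood apart from the others. The labels give no sex. Replicate 1 stood apart by low endothelial and immediate early genes: the mean of 5 endothelial genes was 7.79, 9.15 and 9.58, and that of 29 immediate early genes 9.17, 10.46 and 10.56. Replicate 3 stood apart by high stromal genes, with a mean of 4 genes of 5.16, 5.81 and 8.01. In bulk samples fewer cells of a type and less RNA per cell cannot be told apart.

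A level was called above that of silent genes when it exceeded 6.04, the 95th percentile of 77 olfactory, vomeronasal, trace amine and taste receptor genes, which blood cells are taken not to use. By that rule 62.7% of all genes lay above it, 11402 of 18193, and 10334 genes did so in each of the 3 arrays. Counts of class members above this level are to be read beside that share. The median gene was at 7.02, and the brightest 10.0% of genes began at 10.23. At the lowest deposited value in all 3 arrays were 389 genes, or 2.14%, and such a value is a bound. The replicate spread followed the level: the median SD was 0.13 in the dimmest 10% of genes, which the lowest value compresses, 0.46 in the middle just above the median, and 0.20 in the brightest 10%, with 0.28 over all genes (n = 3).

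In their brightest probe sets all 5 marker genes were high in all 3 arrays, and 4 of them were among the brightest 10.0%. Hlf was at 11.36, 11.20 and 10.95 (percentile 96.3), Mecom at 11.19, 11.06 and 10.68 (95.3), and Procr at 10.76, 10.82 and 11.03 (94.7). Kit was at 10.92, 10.71 and 10.71 (percentile 94.0) and Slamf1 at 9.56, 10.16 and 9.19 (83.9). Replicate 3 had the lowest value of Hlf, Mecom and Slamf1 and the highest of Procr in these brightest probe sets. The other Slamf1 probe sets were lowest in replicate 1, at 9.09, 9.86 and 9.94 and at 8.66, 9.79 and 8.97. Other probe sets of Mecom were at 8.24, 8.05 and 7.40 and at 4.22, 4.19 and 4.22, the latter under the level of silent genes. Another of Kit was at 9.85, 9.09 and 8.90, and another of Hlf at 10.18, 10.40 and 10.03. The order of Hlf, Mecom, Procr and Kit was not separated by the spread between arrays, since the neighbours' values overlapped. In the brightest probe sets every value of Slamf1 lay under every value of Kit. Cd48, the antigen the gate removes, was at 7.44, 6.40 and 5.16, highest in replicate 1 and under the level of silent genes in replicate 3. Flt3, the receptor that marks multipotent progenitors, was at 7.97, 7.70 and 8.00, Cd34 at 9.42, 9.52 and 9.98, and Il7r, the lymphoid interleukin-7 receptor, close to the lowest value at 3.35, 3.12 and 3.60.

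Transcription factors of HSC stood far up the ranking. Of 29 measured, 28 lay above the level of silent genes and 17 among the brightest 10.0%, with a median percentile of 92.4. Lmo2, a bridging protein of the Tal1 complex, led with 12.60, 12.34 and 12.37 (percentile 99.5). Gata2, which maintains HSC, followed at 11.75, 11.95 and 11.79, then Myb at 11.78, 11.42 and 11.70 and Hoxa9 at 11.91, 11.41 and 11.48. Only Lmo2 against Gata2, Bcl11a against Erg, and Nkx2-3 against Cebpa were neighbours in this order without overlapping values, so 25 of 28 neighbouring pairs overlapped. The dimmest were Nkx2-3, a homeobox factor, at 8.49, 9.13 and 8.96, and Cebpa, the factor of granulocyte fate, at 4.55, 3.47 and 6.15. Cebpa has 1 probe set, and it passed the level of silent genes in replicate 3 alone.

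**Figure D1:**
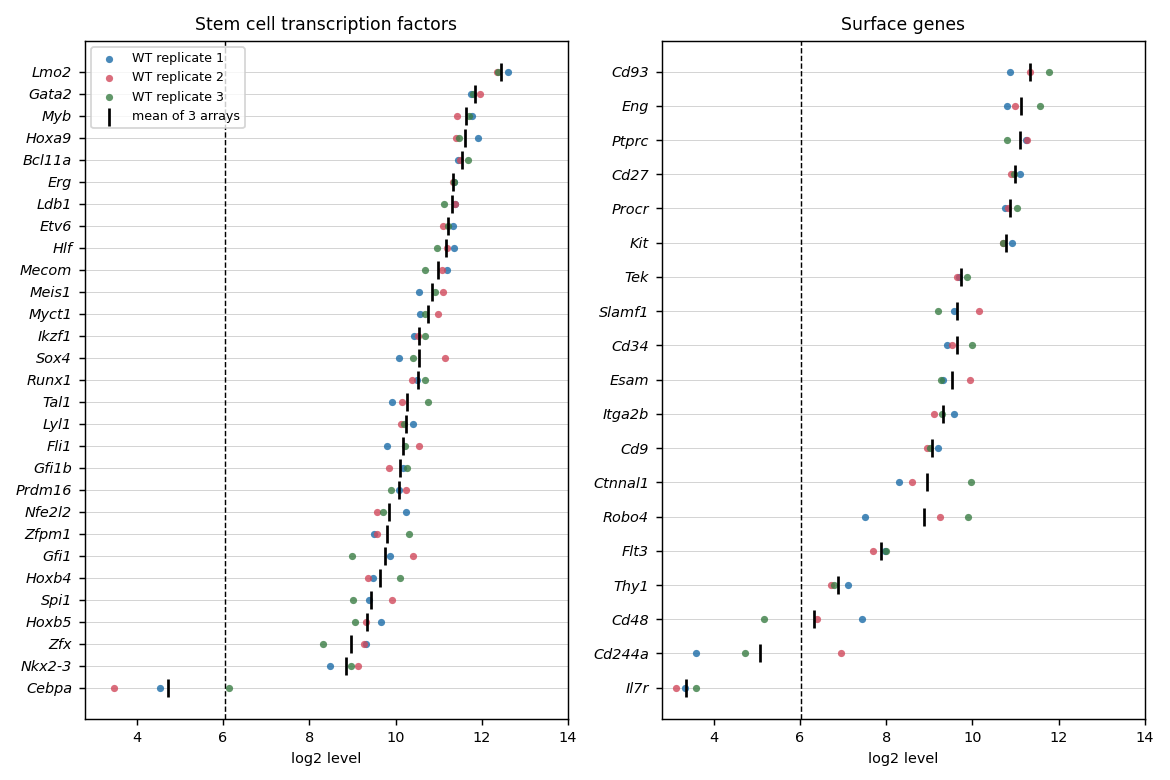
Log2 levels of 29 transcription factors (left) and 19 surface genes (right) of stem cells in the 3 WT arrays, with each array as a dot, the mean as a bar and the level of silent genes (6.04) as a dashed line. All factors except Cebpa lie to the right of the line on average, and Cd244a and Il7r are the 2 surface genes to the left of it.

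Surface genes of the sort and of stem cells had a median percentile of 82.5, with 17 of 19 above the level of silent genes and 6 among the brightest 10.0%. The brightest were Cd93, an early progenitor antigen, at 10.88, 11.34 and 11.77, Eng, a co-receptor of transforming growth factor beta, at 10.81, 10.98 and 11.56, Ptprc, which encodes CD45, at 11.25, 11.25 and 10.79, and Cd27, at 11.11, 10.89 and 10.97. Cd93 and Eng were lowest in replicate 1 and highest in replicate 3. The SLAM family gene Cd244a, which stem cells of this gate are known to lack, was at 3.59, 6.94 and 4.72, so replicate 2 alone passed the level of silent genes.

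Receptors for the niche were led by genes of retention and adhesion. Adgrg1 (GPR56), an adhesion receptor, was at 12.28, 12.15 and 12.08, and Cxcr4, the receptor of Cxcl12, at 12.15, 11.88 and 11.94. Notch2 followed at 12.10, 12.03 and 11.79, and Cd47, the signal that restrains macrophages, at 11.78, 11.83 and 11.68. These 4 were among the 6 in the brightest 10.0%, and 20 of 23 measured members were above the level of silent genes. At the other end were Ackr3, the decoy receptor of Cxcl12, with a mean of 3.94 ± 0.71 (SD, n = 3), and Cdh2, N-cadherin, with 3.69 ± 0.29.

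Cytokine and growth factor receptors had a median percentile of 72.6, with 23 of 25 above the level of silent genes and 6 among the brightest 10.0%. Igf1r, the receptor of insulin-like growth factor, was at 10.61, 10.77 and 11.08, and Kit next to it, as given above. Ifnar2, a chain of the type I interferon receptor, was at 10.70, 10.43 and 10.92, and Il6st, the signalling chain shared by interleukin-6 receptors, at 9.76, 10.77 and 11.47. The dimmest were Bmpr1a, a receptor of bone morphogenetic proteins (5.43 ± 0.25), and Lifr (5.38 ± 1.02, SD, n = 3). Of 24 neighbouring pairs in this order, 22 had overlapping values.

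The Hox genes, the homeobox factors that set position along the body axis and are also used in blood, fell into a small high group and a large low one. Of 33 measured, 11 lay above the level of silent genes, against 62.7% of all genes, and 3 were at the lowest value in all 3 arrays. In the Hoxa cluster 5 of 9 were above it: Hoxa9 (11.60 ± 0.27), Hoxa3 (10.13 ± 0.32), Hoxa5, Hoxa10 and Hoxa7. In the Hoxb cluster these were Hoxb3, Hoxb4 and Hoxb5, 3 of 9. Hoxb4, known for expanding HSC, was at 9.48, 9.35 and 10.10, and Hoxb5, a marker of long-term HSC, at 9.66, 9.30 and 9.06. In the Hoxc cluster Hoxc5, Hoxc6 and Hoxc9 lay above it, 3 of 7, with means of 6.69 to 7.34 that also fall within the range of the receptor genes used as silent. None of 8 Hoxd genes lay above it, and Hoxc8, Hoxd1 and Hoxd10 were the 3 at the lowest value.

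**Figure D2:**
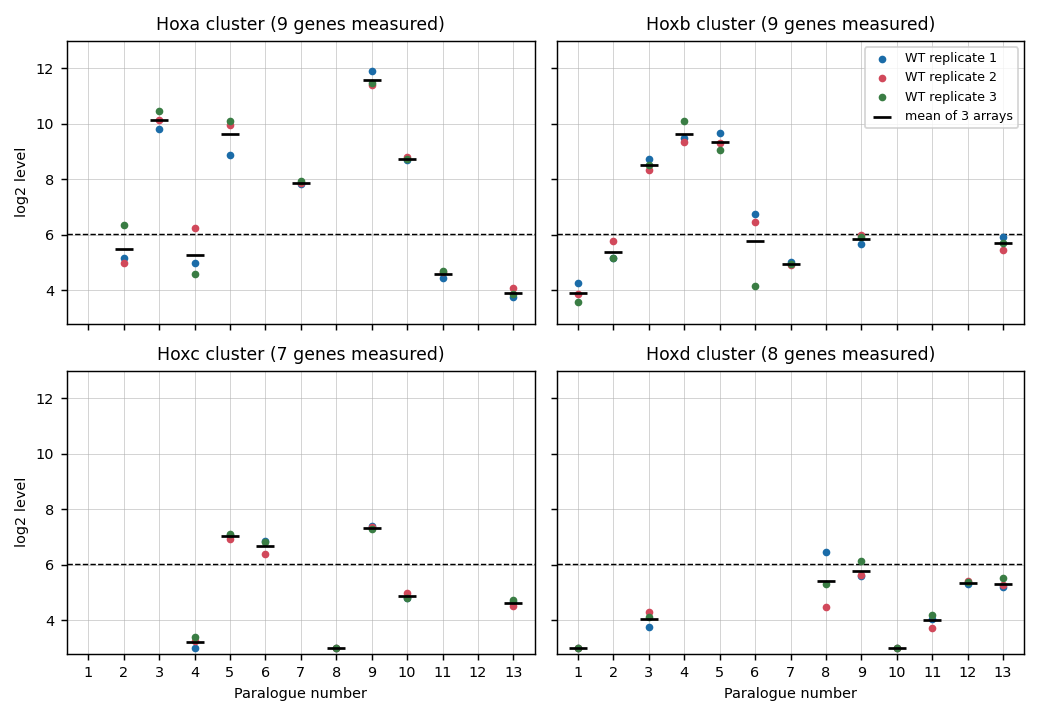
Log2 levels of the measured Hox genes by paralogue number in the 4 clusters, with each WT array as a dot, the mean as a bar and the level of silent genes (6.04) as a dashed line. Hoxa9 is the highest, the Hoxb genes above the line are paralogues 3, 4 and 5, and no Hoxd mean lies above the line.

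Regulators of quiescence were all above the level of silent genes (19 of 19), with a median percentile of 79.0 and 6 among the brightest 10.0%. Egr1, which restrains HSC from dividing, was at 12.44, 12.75 and 12.80, Txnip, the inhibitor of thioredoxin, at 12.18, 12.01 and 12.09, and Foxo3, a FOXO factor that HSC need for quiescence, at 12.09, 11.72 and 11.53. Btg1, an antiproliferative gene, was at 10.41, 11.33 and 11.32, lowest in replicate 1. The cyclin-dependent kinase inhibitor Cdkn1c (p57), a known brake of HSC division, was at 9.23, 8.60 and 9.24, Cdkn1b (p27) at 9.65, 9.45 and 9.50 and Cdkn1a (p21) at 6.61, 8.88 and 8.17. Cdkn1a was thus low in replicate 1 alone. Hes1, a Notch target, and Cdkn2c (p18) were the dimmest, at 7.55 ± 0.92 and 7.53 ± 0.65 (SD, n = 3).

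Immediate early genes, which cells switch on within minutes of a stimulus, were among the brightest of all. Of 29 measured, 29 lay above the level of silent genes and 14 among the brightest 10.0%. Fos was at 12.36, 12.92 and 12.92, the phosphatase gene Dusp1 at 12.62, 12.79 and 12.77 and Jun at 12.39, 12.76 and 12.69, so that Fos, Dusp1, Egr1 and Jun all lay at percentiles of 99.6 to 99.7. The dimmest were Nr4a3 (6.26 ± 0.41) and Fosl1 (6.21 ± 0.02). In 27 of 29 genes replicate 1 had the lowest value, and the median percentile was 75.1, 94.0 and 93.5 in replicates 1, 2 and 3. Replicate 1 also had the lowest value in 4 of 5 endothelial genes (not Pecam1) and in 3 of 4 stromal genes (not Col1a1), and their part in this was not tested. Without replicate 1 the median SD of the class went from 0.57 to 0.21, and its median percentile from 89.8 to 94.2.

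Genes of DNA replication ranked above those of mitosis. The median percentile was 86.6 for 33 S phase genes, 73.7 for 16 G1 genes and 66.1 for 31 genes of G2 and mitosis, and all 80 lay above the level of silent genes. Pcna, the sliding clamp of DNA polymerase, was at 12.11, 12.31 and 12.24. The helicase genes Mcm3 (11.49 ± 0.25), Mcm6 (11.42 ± 0.22) and Mcm7 (11.33 ± 0.41) came next, and 12 of the 33 were among the brightest 10.0%. In G1, Cdk4 (11.22 ± 0.15) and Ccnd2, cyclin D2 (11.18 ± 0.05), stood highest, followed by Cdk6 and E2f3. Ccne2, a cyclin E, and E2f5 stood lowest there.

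Mitotic genes held 3 members among the brightest 10.0%, Cdca8, Mki67 and Ube2c. Cdca8, a subunit of the chromosomal passenger complex, was at 11.13, 11.38 and 10.93, and Mki67, the Ki-67 antigen of dividing cells, at 11.32, 11.27 and 10.78. Ube2c, which tags cyclins for destruction, was at 10.49, 11.28 and 10.55, and Nusap1, a spindle protein gene, at 10.97, 8.69 and 9.38. Nusap1 was high in replicate 1 alone. The checkpoint kinase gene Bub1 and the kinetochore gene Nuf2 were the dimmest, at 6.28 ± 0.23 and 6.61 ± 0.92 (SD, n = 3). A bulk mean does not say how many cells were in cycle.

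Genes of the p53 circuit had a median percentile of 60.6, with 24 of 28 above the level of silent genes and 2 among the brightest 10.0%. Mdm2, the ubiquitin ligase that removes p53, was at 10.84, 10.64 and 10.98, and Sesn1, a sestrin gene, at 10.78, 9.80 and 10.16. Trp53inp1 and Ddb2 followed, the latter at 10.83, 9.61 and 9.82. The death genes Fas (3.67 ± 0.37) and Pmaip1 (Noxa, 3.57 ± 0.76) were the dimmest, close to the lowest value. With the 99th percentile of the receptor genes as the level of silent genes, 15 of 28 lay above it.

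In the Bcl2 family 2 guards against cell death, Mcl1 and Bcl2, stood highest. Mcl1, on which HSC depend, was at 12.09, 12.01 and 12.21 and Bcl2 at 10.65, 10.58 and 10.83. The effector gene Bak1 (10.27 ± 0.22) and the BH3 gene Bad (9.75 ± 0.07) came next, and the BH3 genes Hrk (5.76 ± 0.08) and Pmaip1 came last. Of 14 measured, 11 lay above the level of silent genes, or 78.6%, against 62.7% of all genes.

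Interferon-stimulated genes were split. Ifitm1 was at 12.93, 12.93 and 12.94, Ifitm3 at 12.94, 12.90 and 12.81 and Ifitm2 at 12.27, 12.28 and 12.36. These 3 genes, which encode membrane proteins that block virus entry, lay at percentiles of 99.4 to 99.8 and were the only members of 25 among the brightest 10.0%. Irf1 followed at 10.08 ± 0.28. Mx2 (5.07 ± 0.54) and Usp18 (4.52 ± 1.27), known to rise strongly under interferon, were the dimmest, and the median percentile of the class was 62.9.

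Genes that process and present antigen on major histocompatibility complex (MHC) class I were high, 11 of 11 above the level of silent genes and 7 among the brightest 10.0%. B2m, the shared light chain, was at 13.11, 13.10 and 13.10, the class I gene H2-K1 at 12.64, 12.54 and 12.51 and H2-D1 at 11.91, 12.08 and 12.50. Psmb9, an immunoproteasome subunit, was at 11.30, 11.42 and 11.29. The transporter gene Tap2 (7.46 ± 0.51) and the trimming peptidase gene Erap1 (8.41 ± 0.62) were the dimmest. H2-K1 and H2-D1 belong to a family of near-identical genes, so their probes may also bind relatives.

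DNA repair genes had medians from just above the middle of the ranking upward. The median percentile was 53.9 for 13 genes of non-homologous end joining, which seals double-strand breaks without a template. It was 57.8 for 28 genes of homologous recombination and the Fanconi pathway. Excision and mismatch repair had 65.2 (28 genes) and checkpoint genes 71.3 (21 genes). The order of end joining and homologous recombination depended on the choice of probe sets. Averaging them put end joining at 63.6, above homologous recombination at 57.8. Keeping only those with no shared-probe suffix gave 58.4 and 59.8, in the reported order. Lig4, the ligase of end joining and the gene altered in the other arrays of the series, was at 7.64, 6.82 and 7.71 (percentile 54.3), above the level of silent genes in all 3 WT arrays. Its mean of 7.39 did not exceed the 99th percentile of the receptor genes (7.44). Trp53bp1 (53BP1), which steers breaks to end joining, was at 11.94, 11.97 and 11.95, far above the other members. Rif1 (9.77 ± 0.43) and the Ku subunits Xrcc6 (9.41 ± 0.44) and Xrcc5 (8.29 ± 0.37) followed, and Aptx and Polm were the dimmest. In this class 12 of 13 lay above the level of silent genes, but 5 with the 99th percentile of the receptor genes as the limit.

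In the other repair pathways a few genes stood out upward. Rad52 was at 10.10, 11.66 and 11.05, the only gene of homologous recombination among the brightest 10.0%. Fancg (10.07 ± 0.41), Mre11a and Fanci came next, and Fancb and Rad51b (4.90 ± 0.37) were the dimmest. In excision repair Apex1, the abasic site endonuclease, was at 11.48, 11.64 and 11.27 and Parp1 at 11.02, 10.67 and 10.62, with Ung and Msh6 next, while Polq and Ercc6 were not above the level of silent genes. The checkpoint class was led by the histone gene H2ax, at 10.37, 10.47 and 10.77, followed by Topbp1, Rnf8 and Tipin. Its dimmest members were the clamp gene Rad1 and the clamp loader gene Rad17.

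Chromatin regulators were high as a whole. All 34 histone modifiers and remodellers and all 26 Polycomb genes lay above the level of silent genes, with median percentiles of 88.0 and 80.5. Chd4, the helicase of the NuRD complex, was at 11.15, 11.43 and 11.57, the H3K4 methyltransferase gene Kmt2d at 11.41, 11.28 and 11.35, and Crebbp and Kdm1a, the latter a histone demethylase gene, had means of 11.31 and 11.20. Chd7 and Kmt2b were the dimmest of this class. Among Polycomb genes, the silencers of developmental genes, Rbbp4 (12.20 ± 0.12), Rbbp7, Mtf2 and Pcgf5 led, Bmi1, which HSC need for self-renewal, was at 9.49, 8.77 and 10.21, and Cbx2 and Cbx8 were lowest. The DNA methylation genes Mbd2 (10.76 ± 0.23), Dnmt3a (10.62 ± 0.36), Uhrf1 (10.58 ± 0.49) and Dnmt1 (10.56 ± 0.61) stood close together. Dnmt3l, a germ-cell cofactor, was at 5.51 ± 0.17, and it was the only 1 of 14 not above the level of silent genes.

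Imprinted genes ranged from percentile 22.8 to 98.8, with a median percentile of 56.6. Above the level of silent genes were 14 of 19, or 73.7%, against 62.7% of all genes. Gnas, which encodes a G protein alpha subunit, was at 12.25, 11.82 and 11.94, and Ndn (necdin), a growth suppressor linked to HSC quiescence, at 11.21, 10.91 and 10.83. Grb10 was at 11.20, 10.90 and 10.52 and Impact at 9.71, 9.93 and 10.40. Meg3, a long noncoding RNA, rested on 8.30, 9.58 and 10.41, highest in replicate 3. Dcn (5.40 ± 0.08) and Peg10 (5.04 ± 0.83) were the dimmest.

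Protein synthesis filled the top of the ranking. Of the 30 brightest genes with a name other than a clone's, 22 encode ribosomal proteins, led by Rplp2 at 13.68, 13.85 and 13.81, Rps28 (13.53 ± 0.02), Rpl41 (13.52 ± 0.15), Rps29 (13.48 ± 0.03) and Rpl38 (13.46 ± 0.03). The other 8 were the nuclear RNA Malat1 (13.28 ± 0.06), Hnrnpab, the elongation factor gene Eef1a1 (13.24 ± 0.06), the kinase inhibitor gene Pebp1, B2m, the mitochondrial channel gene Vdac1, the 14-3-3 gene Ywhae and Tpt1. Their spread between arrays was small, and the lowest mean of the 30 was 12.96. The median percentile of 49 cytosolic ribosomal protein genes was 99.8, with 37 among the brightest 10.0% and 44 above the level of silent genes. The 2 dimmest, Rpl37 (4.34 ± 0.08) and Rps16 (3.58 ± 0.36), were each read by the 1 probe set that names no other gene. The respective class over probe sets with no shared-probe suffix held 26 genes, 21 of them above the level, and its median percentile was 81.0.

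Energy metabolism was led by the respiratory chain. Its 74 genes had a median percentile of 96.6, with 58 among the brightest 10.0%, while 19 glycolysis genes had a median of 90.1, with 10 among them. All genes of both classes lay above the level of silent genes. Atp5a1, a subunit of ATP synthase, was at 12.81, 12.69 and 12.64, Cox5b at 12.75, 12.73 and 12.62, and Ndufb7 and Cox6b1 followed. The dimmest were Cox7c (7.49 ± 0.85) and Ndufb4 (7.15 ± 0.47). In glycolysis Aldoa, Ldha and the glucose transporter gene Slc2a3 were brightest, and Hk3 and Eno2, the neuronal enolase, were the dimmest. The 76 mitochondrial ribosomal protein genes all lay above the level of silent genes, with a lower median percentile of 82.7. Mrpl52 (12.53 ± 0.15) was their brightest and Mrpl38 (7.14 ± 0.08) their dimmest.

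Genes of RNA processing and protein upkeep were also near the top. Splicing factors and hnRNPs had a median percentile of 96.5 (49 genes), with Hnrnpab (13.26 ± 0.02) and Snrpg (12.81 ± 0.20) brightest. Srsf12 (3.12 ± 0.20), a tissue-restricted splicing factor, was close to the lowest value. Cytosolic and mitochondrial heat shock proteins had a median percentile of 97.8, with 19 of 23 among the brightest 10.0%, led by Hspa8 (12.85 ± 0.06), Hsp90aa1 (12.25 ± 0.03), Hspe1 and Cct2. Hspb1 (6.47 ± 0.65) was their dimmest. The unfolded protein response, led by the chaperone gene Hspa5 (BiP) at 11.88, 12.50 and 12.37, had a median of 85.7. Translation factors had a median of 87.4 (56 genes), and proteasome subunits 87.8 (39 genes). Psma6 (11.67 ± 0.07) was the brightest proteasome gene and Psmb11, the thymus-specific subunit, the dimmest at 4.38 ± 0.26.

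Antioxidant genes were all above the level of silent genes (21 of 21, median percentile 87.9). Sod1 was at 12.45, 12.41 and 12.50, Gpx1 at 12.44, 12.50 and 12.39 and Txn1 at 11.94, 12.20 and 12.17, while Gss (6.89 ± 0.64) and Hmox1 (6.84 ± 0.17), the inducible haem oxygenase, were the dimmest. Autophagy genes were also all above it (28 of 28) with a lower median percentile of 72.8. Map1lc3b (11.83 ± 0.10), Gabarapl1, Gabarap and the lysosomal gene Lamp1 (10.87 ± 0.01) led, and Atg14 and Atg16l1 stood lowest.

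**Figure D3:**
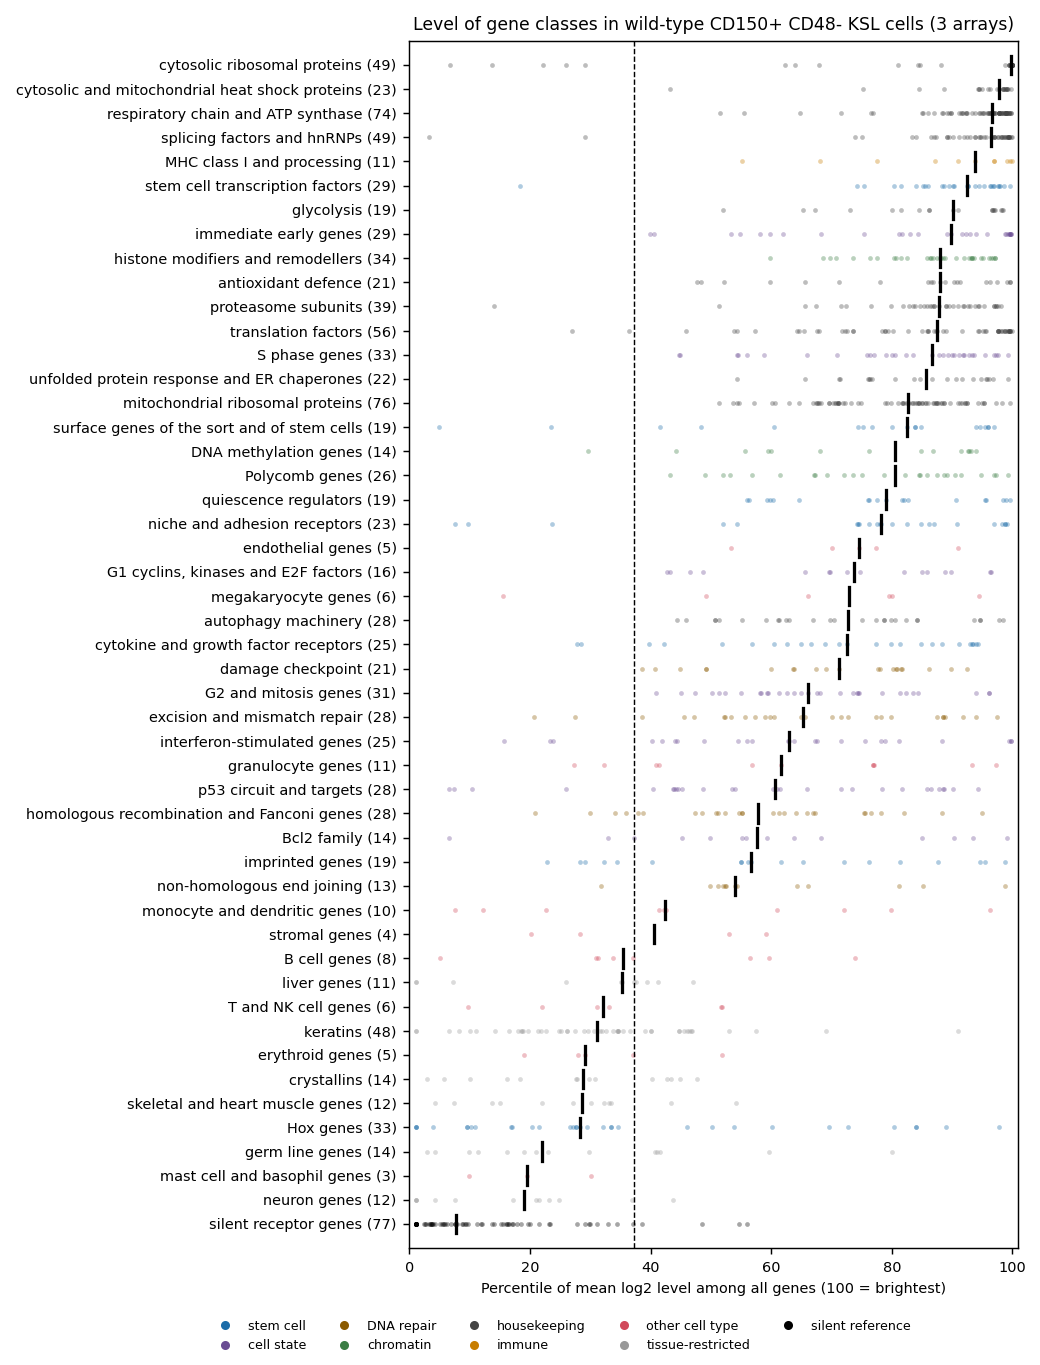
Percentile of the mean log2 level over the 3 WT arrays for each measured gene (dots) of 49 gene classes, with the class median as a bar, the number of genes in parentheses and the level of silent genes, at percentile 37.3, as a dashed line. Ribosomal proteins have the highest median (99.8) and the receptor genes used as silent the lowest (7.76), and HSC transcription factors (92.4) lie among the housekeeping classes.

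Markers of other cell types gave a mixed picture. Among granulocyte genes 9 of 11 lay above the level of silent genes, or 81.8%, against 62.7% of all genes. S100a9 was at 11.22, 11.68 and 11.34 and S100a8 at 10.73, 11.08 and 10.15, both calprotectin genes of neutrophils. Mpo, the peroxidase of early granulocytes, was at 10.71, 6.96 and 9.57 and Elane, which encodes neutrophil elastase, at 7.92, 4.13 and 6.88, so replicate 1 was highest and replicate 2 lowest in both. Ngp was at 10.01, 8.90 and 8.32, also highest in replicate 1, and the class mean was 8.72, 7.63 and 7.78. Fcnb (5.71 ± 0.99) and Ctsg (5.34 ± 0.98) were the dimmest. Of 10 monocyte and dendritic genes 7 lay above the level, or 70.0%, near the share of all genes. The brightest were the lysozyme gene Lyz2 at 11.55, 11.03 and 10.98 and Cd74, H2-Aa and H2-Ab1 of MHC class II. The dimmest were the surface genes Adgre1 (F4/80, 4.19 ± 0.85) and Itgam (CD11b, 3.71 ± 0.13), not above the level of silent genes. Csf1r, another surface gene of this list, lay above it.

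The lymphoid and erythroid lists were low. Of 8 B cell genes Cd79b (8.84 ± 0.22), Ighm (7.83 ± 0.10) and Vpreb1 (7.57 ± 0.74) lay above the level of silent genes, and Igll1, Pax5, Cd79a, Ebf1 and Ms4a1 did not. Ms4a1, which encodes CD20, was at 3.43, 3.41 and 3.29. Of 6 T and NK cell genes Cd4 (7.18 ± 0.77) and Nkg7 (7.17 ± 0.59) lay above it, and Cd8a, Cd3d, Cd3g and Cd3e did not. Cd3e, a chain of the T cell receptor complex, was at 4.06, 3.98 and 3.77. Of 5 erythroid genes only the erythropoietin receptor gene Epor (7.18 ± 0.48) lay above it, or 2 without replicate 2, and Hba-a1, which encodes alpha globin, was at 4.63, 4.67 and 4.97 beside Alas2, Car1 and Klf1. None of the 3 mast cell and basophil genes, Mcpt8 (5.55 ± 0.18), Cpa3 (4.80 ± 1.25) and Ms4a2 (3.95 ± 0.32), had a mean above it, and Cpa3 passed it in replicate 3 alone.

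Megakaryocyte genes were higher, with a median percentile of 72.8. Above the level of silent genes were 5 of 6, or 83.3%, against 62.7% of all genes. Pf4, platelet factor 4, was at 10.48, 10.63 and 11.41, and Vwf, the von Willebrand factor found in platelet-biased HSC and in endothelium, at 8.50, 9.18 and 10.19. Both were highest in replicate 3. Itga2b, which encodes CD41, was at 9.56, 9.11 and 9.30, and Gp9 and Gp1bb had means of 8.29 ± 0.28 and 6.95 ± 0.24. Ppbp, a platelet chemokine gene, was at 4.59, 4.32 and 4.57, so the list did not move as a whole.

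Endothelial genes were all 5 above the level of silent genes on average, and their level differed between arrays. Cdh5, VE-cadherin, was at 6.96, 10.12 and 10.27, Stab2, a scavenger receptor of sinusoidal endothelium, at 6.54, 9.01 and 10.13, and Kdr, a VEGF receptor, at 6.25, 7.56 and 8.11. All 3 were lowest in replicate 1 and highest in replicate 3. Emcn, which HSC also express, was at 9.72, 10.69 and 10.58, and Pecam1, also shared with HSC, at 9.48, 8.36 and 8.82, highest in replicate 1. The summed linear signal of the 5 genes was 1855, 3792 and 4623. Without replicate 1 the median SD of the list went from 0.95 to 0.32 and its median percentile from 74.6 to 82.8.

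Stromal genes had the widest range of class means between arrays. Cxcl12, the chemokine of the niche, was at 5.11, 8.61 and 9.63, Col1a1, a collagen of osteoblasts and fibroblasts, at 6.76, 5.59 and 9.46, and Adipoq, adiponectin of fat cells, at 3.53, 3.76 and 7.26. Replicate 3 was highest in each. Lepr, the leptin receptor of perivascular stroma, was at 5.24, 5.29 and 5.69 in its brightest probe set, not above the level of silent genes in any array. Another Lepr probe set was at 3.26, 4.05 and 7.09, above that level in replicate 3. Of the 4 genes 2 lay above that level on average, and without replicate 3 it was 1, Cxcl12. The part of these cells in other differences between the arrays was not tested.

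**Figure D4:**
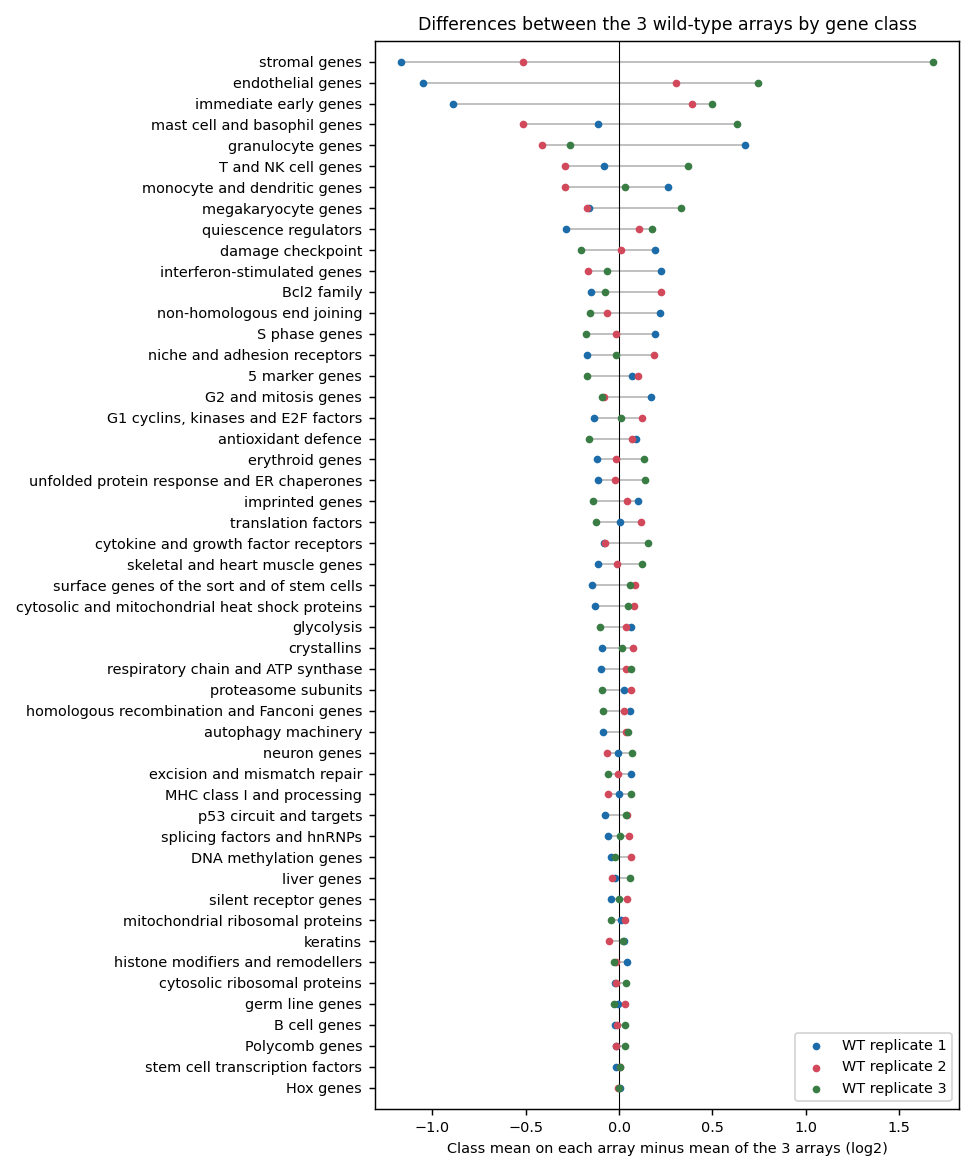
Mean log2 level of each of 50 gene classes on each WT array minus the mean of the 3 arrays. Stromal, endothelial and immediate early genes are spread most, with replicate 1 lowest in all 3 classes, and HSC transcription factors and Hox genes are spread least.

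Over all genes with a mean above the median, 375 had a range between arrays of at least 2 on the log2 scale. An array was counted as standing alone when it lay at least 1.5 from both others. Replicate 1 lay alone on the low side in 92 of these genes and on the high side in 42, replicate 2 in 31 and 32, and replicate 3 in 58 and 48. The 92 included 7 immediate early genes (Atf3, Ccn1, Ccn2, Fosl2, Klf4, Nr4a1 and Nr4a2) and the endothelial genes Cdh5 and Stab2.

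The 15 genes with the largest SD among those with a mean above the median of all genes, clones and predicted genes passed over, were mostly low in replicate 1. After Xist came Lipg, endothelial lipase, at 3.48, 8.49 and 11.16, and the membrane glycoprotein gene Gpm6a at 3.02, 9.02 and 9.19. Nr4a2, a nuclear receptor of the immediate early class, was at 5.74, 10.84 and 11.63. Replicate 1 was also lowest in Npnt, Aplnr (the apelin receptor), Arap3, Mrc1 (the mannose receptor CD206), Stx1a, Adamts1, Cxcl12 and Atf3. Mrc1, known from macrophages and sinusoidal endothelium, was at 4.91, 8.83 and 9.37. The exceptions were Xist, Tmem198b, which was highest in replicate 1 (11.16, 6.74 and 7.95), and Tbc1d25 (8.05, 10.83 and 6.28) and Neurl1b (8.65, 8.12 and 4.51), lowest in replicate 3. These values are of brightest probe sets, and other probe sets of these genes were split. Replicate 1 was also far the lowest in another of Lipg (4.34, 8.23 and 10.47) and of Nr4a2 (5.28, 11.02 and 11.06). It was not the lowest in others of Arap3 (6.61, 5.75 and 5.94), Cxcl12 (5.67, 5.90 and 5.66) and Nr4a2 (7.12, 7.38 and 6.95). Nor was it the lowest in a further probe set of Lipg (5.04, 4.73 and 5.16) and in 1 of Npnt (5.82, 5.62 and 7.59). Another of Tmem198b was nearly flat (8.53, 8.15 and 8.15). Among the 50 classes plotted, HSC transcription factors had a median SD of 0.26, near that of all genes (0.28), and ribosomal proteins had 0.05.

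Genes of tissues that share little with blood gave the lower end of the scale. Of 12 neuron genes 1 lay above the level of silent genes, Rbfox3 at 6.39, 6.32 and 6.84, and Snap25, Neurod6 and Nefm were at the lowest value in all 3 arrays. Of 12 muscle genes 2 lay above it, Tnni2 (7.37 ± 0.32) and Mb (6.48 ± 0.16), and Actc1 and Myh1 were the dimmest. Of 11 liver genes 4 did, led by Apoa1 (6.78 ± 0.07), with Fga and Cyp3a11 at the lowest value. The neuron count was 2 without replicate 1 or without replicate 2, and the liver count 2 without replicate 1 and 1 without replicate 3. Rbfox3 and Mb lay within 0.5 of the level of silent genes, and a mean just above 6.04 does not show that a transcript was present.

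Germ line genes, crystallins and keratins had shares of 5 of 14, 5 of 14 and 14 of 48 above the level of silent genes. The protamine gene Prm1 of sperm was at 8.95, 9.48 and 9.54, and Sycp1 of meiosis at 8.74, 7.92 and 6.83. Ddx4, a germ cell helicase, was near the lowest value with 3.08 ± 0.13. The lens genes Cryba2 (6.83 ± 0.15) and Crybb1 (6.61 ± 0.37) led the crystallins. Krt18, a keratin of simple epithelia, was the only keratin among the brightest 10.0%, at 10.24, 10.36 and 10.42, followed by Krt42 (8.49 ± 0.27), and Krt2 and Krt6b were at the lowest value. Among the 77 receptor genes that set the level, 4 lay above it by construction, Tas1r3 (7.52 ± 0.25) and Tas1r1 (7.42 ± 0.61) highest, and 18 were at the lowest value.

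The 389 genes at the lowest value in all 3 arrays, 2.14% of all, were counted in gene families picked after the values were seen. Of 32 vomeronasal receptors 13 were among them, of 17 prolactin family genes 5, of 18 killer cell lectin-like receptors 4, of 38 keratin-associated proteins 8, of 40 serpins 6 and of 39 olfactory receptors 5. The named families hold only a small part of the 389. Of 347 solute carriers 8 were among them, or 2.31%, near the share of all genes, of 339 zinc finger proteins 4, and of 76 mitochondrial ribosomal proteins none. Without the names of clones and predicted genes 299 remained, among them Sox2, a pluripotency factor, Il6 and Il33, interleukin genes, and F9, clotting factor IX of liver, all 4 chosen after their values were seen.

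Noncoding genes were dimmer than coding ones. Of 16470 protein-coding genes 66.3% lay above the level of silent genes, and of 1458 genes annotated as long noncoding RNA 26.3%. Small nucleolar RNA host genes were an exception, with 11 of 14 above it. Snhg8 was at 12.06, 12.40 and 12.34, Snhg1 at 11.66, 11.87 and 11.94 and Snhg5 at 11.41, 11.61 and 11.51. These families and genes were also chosen after their values were seen.

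Of 14 genes named for a microRNA 6 lay above the level of silent genes, against 62.7% of all genes. Mir142, the locus of a blood-restricted microRNA, was at 10.08, 9.69 and 9.91 (percentile 86.5), and Mir133b, the locus of a muscle microRNA, was at the lowest value in all 3 arrays. Probe sequences were not analysed here, so whether these probe sets read the primary transcript was not checked. The mature sequences of these 2 loci are shown, from RefSeq for GRCm38.p6 and with the seed (bases 2 to 8) in capitals, because one locus lies well above the level of silent genes and the other at the lowest value. Mir142 lies on the plus strand of chromosome 11, with its arms at chr11:87756867-87756887 and chr11:87756903-87756925, and Mir133b on the plus strand of chromosome 1, with its arms at chr1:20682797-20682818 and chr1:20682834-20682855.
miR-142a-5p: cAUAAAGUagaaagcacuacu
miR-142a-3p: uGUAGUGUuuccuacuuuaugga
miR-133b-5p: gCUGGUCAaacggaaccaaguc
miR-133b-3p: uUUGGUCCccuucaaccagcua
No seed is shared among the 4 arms.

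Genes of the X chromosome were dimmer than those of autosomes. Of 618 genes on X, 53.9% lay above the level of silent genes, with a median level of 6.40. The 19 autosomes had shares of 56.6% to 67.9% and medians of 6.70 to 7.51. Xist and the Y-linked genes split the arrays as given above, so this X share mixes arrays of both patterns.

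The sequence of the promoter changed along the ranking. RefSeq's table gave a promoter, here 250 bases before to 50 after the start, for 14452 of the ranked genes, and the 11791 with 1 listed start were counted. A promoter was called CpG-rich when its ratio of observed to expected CG exceeded 0.6. In the dimmest 10% of genes 22.2% were CpG-rich, in the brightest 10% 83.4%, and in all 57.4%. Of the promoters of genes at the lowest value in all 3 arrays 13.9% were CpG-rich. Motifs were searched on both strands as exact letters, and none of them is contained in another. TATAAA, the TATA box, was present in 20.0% of the dimmest 10%, in 5.45% at its lowest and in 8.32% of the brightest 10%, with 10.2% over all. CCGGAAG, here called the ETS site, ran the other way, from 4.01% to 24.5% and 21.3% in the last steps, with 14.1% over all. GGGCGG, the GC box, was in 26.2% of the dimmest and 70.5% of the brightest 10%, with 54.3% over all. CCAAT, the CCAAT box, stayed between 35.2% and 42.9% in every step. A match describes letters in this window and is not a measured site.

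**Figure D5:**
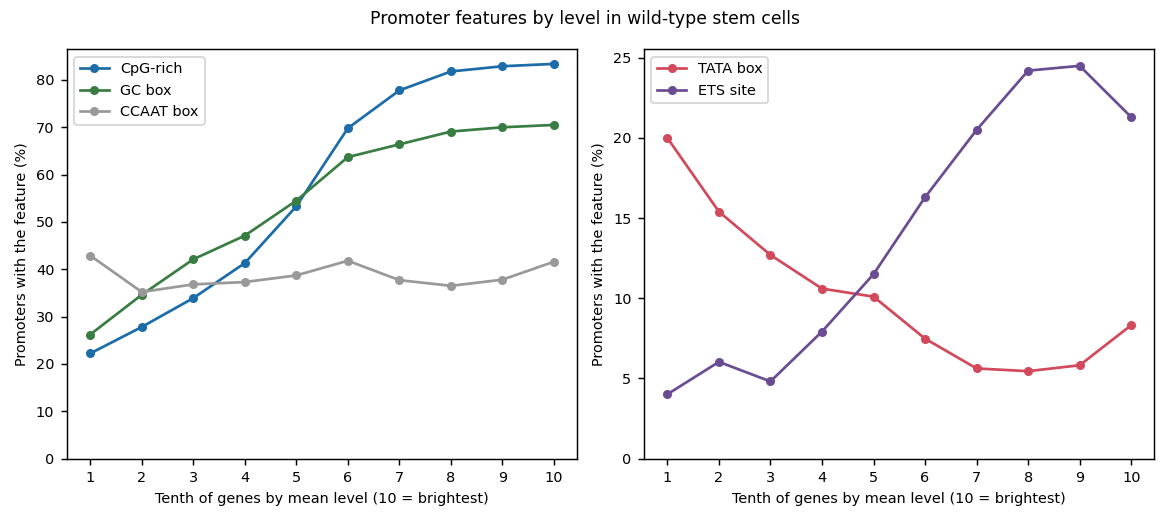
Share of promoters (300 bases, genes with 1 listed start) that are CpG-rich or hold a motif, in percent, in 10 equal steps of all genes ranked by mean level over the 3 WT arrays, from dimmest to brightest. CpG-rich promoters rise from 22.2% to 83.4% and ETS sites from 4.01% to 21.3%, while TATA boxes go from 20.0% to 8.32%.

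Gene classes differed in these letters. The classes and motifs named here were picked from all those counted, by no stated rule. CCGGAAG was in 52.8% of 36 ribosomal protein promoters and 41.7% of 24 S phase promoters, against 14.1% over all. CCAAT was in 76.9% of 26 promoters of G2 and mitosis genes and 84.2% of 19 of the unfolded protein response, against 38.6% over all. TATAAA was in 58.1% of 31 keratin and 6 of 7 muscle promoters, against 10.2% over all. CpG-rich promoters made up 57.4% of all. HSC surface genes had them in 3 of 14, quiescence regulators in 11 of 11, and HSC transcription factors in 8 of 16, near the share of all. No promoter of 11 granulocyte genes was CpG-rich, and of 17 interferon-stimulated genes 17.6% were.

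The stretches of the brightest gene and of 2 tissue-restricted genes at the lowest value show the ends of this range, again as 150 bases before the start with CG in capitals. Rplp2, of the ribosomal stalk, lies at chr7:141447501-141447650 on the plus strand, Krt2, a keratin of the epidermis, at chr15:101818170-101818319 on the minus strand, and Cyp3a11, a liver cytochrome P450, at chr5:145879855-145880004 on the minus strand.
Rplp2: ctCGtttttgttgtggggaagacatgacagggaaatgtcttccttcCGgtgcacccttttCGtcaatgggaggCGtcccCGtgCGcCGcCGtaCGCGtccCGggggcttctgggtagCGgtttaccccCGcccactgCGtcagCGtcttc
Krt2: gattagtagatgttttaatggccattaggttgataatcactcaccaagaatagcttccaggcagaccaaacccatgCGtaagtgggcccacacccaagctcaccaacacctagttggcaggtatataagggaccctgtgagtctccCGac
Cyp3a11: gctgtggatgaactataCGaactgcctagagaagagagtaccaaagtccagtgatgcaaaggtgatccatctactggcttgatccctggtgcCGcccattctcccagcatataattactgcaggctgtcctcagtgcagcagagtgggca
Rplp2 held 15 CG in this stretch, and Krt2 and Cyp3a11 held 2 each. The ratio of observed to expected CG over the whole promoter was 1.14 in Rplp2, 0.376 in Krt2 and 0.125 in Cyp3a11, and among the markers with 1 listed start 0.893 in Hlf, 0.528 in Procr and 0.223 in Slamf1.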

How the data were processed

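RNA of 3 WT samples was measured on 1-colour mouse arrays of Affymetrix. The labels name Trizol extraction and cRNA labelling, and the series' design text the Ovation Pico WTA kit. The deposited values are log2 levels per probe set, which the authors made with RMA, per the submitters' processing notes, with no version given. Their lowest value is 3, of unstated origin. Precision is limited by the number of arrays, which have no read depth.

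Of 45101 probe sets, 34945 name 1 gene in GEO's platform annotation, and symbols of 34741 were updated through RefSeq's gene table for GRCm38.p6. Probe sets with several genes (932) or none (9160) and the 64 control probe sets were left out. For genes with several, the brightest stood for the gene. With Python 3.11.15, pandas 2.3.3 and numpy 2.4.6, means, SDs (n = 3), percentiles and counts were computed from the values as deposited. The code of the ranking was run on simulated data in which the brightest probe set was the right one by design. That run cannot tell whether the brightest probe set is the right choice on real arrays. No test between groups was made, so no p-value is given.

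The gene set, the 52 lists and the markers were chosen with earlier results of these data known. Named by rule were the 5 markers, the 30 brightest genes, in each class up to 4 brightest and 2 dimmest members (all where 8 or fewer were measured), the 15 genes with the largest SD and a mean above the median and the Hox genes. Lig4, Cdkn1a, Cdkn1b, Cdkn1c, Bmi1, Meg3, Elane, Adgre1, Il7r, Cd34, Flt3, Cd48 and the other genes named were chosen after their values were seen.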

Additional observations from a re-analysis of the deposited data

How the results depend on the processing

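No paired analysis was possible because no groups were compared. The count of genes above the level of silent genes ran from 8198 to 12646 over all alternatives and that of genes at the lowest value from 389 to 474, within 1.5 times of the reported counts. Quantile normalization over the 3 WT or all 6 arrays moved no class count out of 50 and no class median by more than 0.302 percentile points. Counts of members above the level of silent genes moved as follows. Probe sets with no shared-probe suffix, which measure fewer genes, gave 3 markers (of 3), 21 ribosomal, 10 glycolysis, 7 MHC class I, 3 monocyte, 3 endothelial, 0 liver, 3 germ line and 3 crystallin genes. Averaging the probe sets gave 2 erythroid, 1 muscle and 0 neuron genes. The 90th percentile of the receptor genes (5.58) gave 7 B cell, 4 T and NK cell, 2 erythroid, 7 liver, 5 muscle, 2 neuron and 25 keratin genes. The 99th (7.44) gave 15 p53, 5 end joining, 4 monocyte, 0 T and NK cell, 0 erythroid, 1 stromal, 0 liver, 0 muscle, 0 neuron, 2 germ line, 0 crystallin and 3 keratin genes. Leaving out each array gave 1 to 2 erythroid, 1 to 2 stromal, 1 to 5 liver and 1 to 2 neuron genes. The cause of the other shifts was not tested. Class medians moved by more than their SD between the 3 arrays in 36 of 50 classes with averaging. With no shared-probe suffix it was 28 of 50, with a largest shift of 18.8 percentile points (ribosomal proteins). Without replicate 1, 2 and 3 it was 8, 7 and 11, and median SDs changed by more than 1.5 times in 16, 10 and 14 classes. Averaging probe sets moved class medians by up to 11.0 percentile points (granulocyte genes, 72.6), and 45.9% of the 7042 genes with several probe sets and a bright one had another probe set not above the level of silent genes.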
